A study of Mus musculus with 32 samples.

Results

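The hairpins used against Zbtb9, whose protein joins a BTB domain to zinc fingers, were compared directly with each other before and 3 days into fat cell differentiation. The comparison takes 8 of the 32 libraries of the series, chosen by the hairpin and day in their labels: 4 libraries of 3T3-L1 cells with shRNA 2 and 4 with shRNA 1, with 2 of each at day 0 and 2 of each at day 3. 3T3-L1 is an established mouse preadipocyte line, and a short hairpin RNA (shRNA) is cut by the cell into a small RNA that lowers the messenger it matches. Both sides of the comparison carry a hairpin against Zbtb9, so a difference here is a difference between hairpin lines. What part unequal lowering of Zbtb9 has in it was not tested. The 8 scramble control libraries of days 0 and 3 were used only to place each line.

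Cells were kept in DMEM with 10% serum. Day 0 was 2 days after confluence, when 1 µM dexamethasone, 0.5 mM isobutylmethylxanthine and 167 nM insulin were added, and day 3 was when this cocktail was replaced by 167 nM insulin. The labels call the cells preadipocytes at day 0 and premature adipocytes at day 3. They do not say how the hairpins were delivered, whether each line was a clone or a mixed population, or whether replicates were separate cultures, so p-values measure only the spread between these libraries. Nor do they say whether day 0 RNA was taken before the cocktail was added. Hairpin and cell line cannot be told apart in this design.

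When confluent 3T3-L1 cells meet the cocktail, they re-enter the cell cycle for a short time and then switch on the fat cell programme under C/EBP and PPARγ transcription factors. Dexamethasone acts through the glucocorticoid receptor, and isobutylmethylxanthine raises cyclic AMP. As the cells turn into fat cells they lose fibroblast matrix and gain genes of lipid storage.

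Values in the deposited table are log2 levels of a regularized form, from which whole reads were rebuilt. Levels are given below as normalised reads (reads divided by the size factor of the library), replicate 1 before replicate 2. Differences are shRNA 2 minus shRNA 1 on the deposited log2 scale with their standard error, and this scale understates the change of genes with few reads. Genes were called at an adjusted p under 0.05 (limma, Benjamini-Hochberg over all genes tested). The 8 libraries held 23640983 to 27628758 rebuilt reads, and the 8 controls 24432250 to 29799055. Fibroblast markers summed to 198720 normalised reads or more in every library of these days. Markers of muscle, cartilage and bone, endothelium and epithelium each summed to under 100 (highest 88.4). The macrophage list, led by Cd14, Csf1r and Cd68, summed to 470.2 to 483.5 normalised reads with shRNA 1 and 534 to 633 with shRNA 2. Controls had 605 to 731, so that shRNA 1 lay under both other groups. Its members Ptprc and Itgam were at 3 reads or fewer in all 16 libraries.

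Zbtb9 itself, the target of both hairpins, was covered by few reads. At day 0 it had 4.62 and 10.6 normalised reads with shRNA 1, 10.5 and 9.27 with shRNA 2 and 13.5 to 14.9 in controls. At day 3 the levels were 0 and 7.41 with shRNA 1, 8.99 and 4.39 with shRNA 2 and 6.35 to 12.6 in controls. Libraries of both lines overlapped each other on both days. At day 0 all 4 lay under the controls, while at day 3 shRNA 1 replicate 2 and shRNA 2 replicate 1 lay within the control range. Means over both days were 5.66 with shRNA 1 (46.4% of control) and 8.30 with shRNA 2 (67.9% of control). The shRNA 2 line was 2.64 normalised reads above the shRNA 1 line, which did not pass an exact permutation test within days (two-sided p = 0.333, smallest possible 0.0556). Against control the line with shRNA 1 was lower by 6.55 normalised reads (exact permutation p = 0.00889) and that with shRNA 2 by 3.92 (exact permutation p = 0.0178), with 0.00444 the smallest p possible. With 2 libraries for each line and day this permutation test could not pass the 0.05 threshold at any depth, so it does not show that the hairpins lowered Zbtb9 alike. Leaving out 1 library at a time moved that difference between 0.785 (without shRNA 1 day 3 replicate 1) and 4.49 (without shRNA 1 day 3 replicate 2). Zbtb9 lay under the filter of the test across genes.

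Over both days, 3557 of 13215 genes tested differed between the hairpin lines (26.9%), 1866 higher and 1691 lower with shRNA 2. Most differences were small: the median size among the called genes was 0.25 (log2), and 16 genes reached 1. Taken by day, 4382 genes were called at day 0 (33.2%) and 2884 at day 3 (21.8%). Of these, 1534 were called on both days in the same direction, which is 35.0% of the day 0 calls and 53.2% of the day 3 calls, and 112 in opposite directions. The change of the difference from day 0 to day 3 was itself called for 1595 genes (12.1%). Without shRNA 2 day 0 replicate 2 the calls fell to 2829 at day 0 and to 942 for the change, and without shRNA 1 day 0 replicate 2 to 1027 for the change. Across the 13215 genes, which are not independent replicates, the day 0 and day 3 differences had a Pearson correlation of 0.42 and a Spearman correlation of 0.44.

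**Figure D1:**
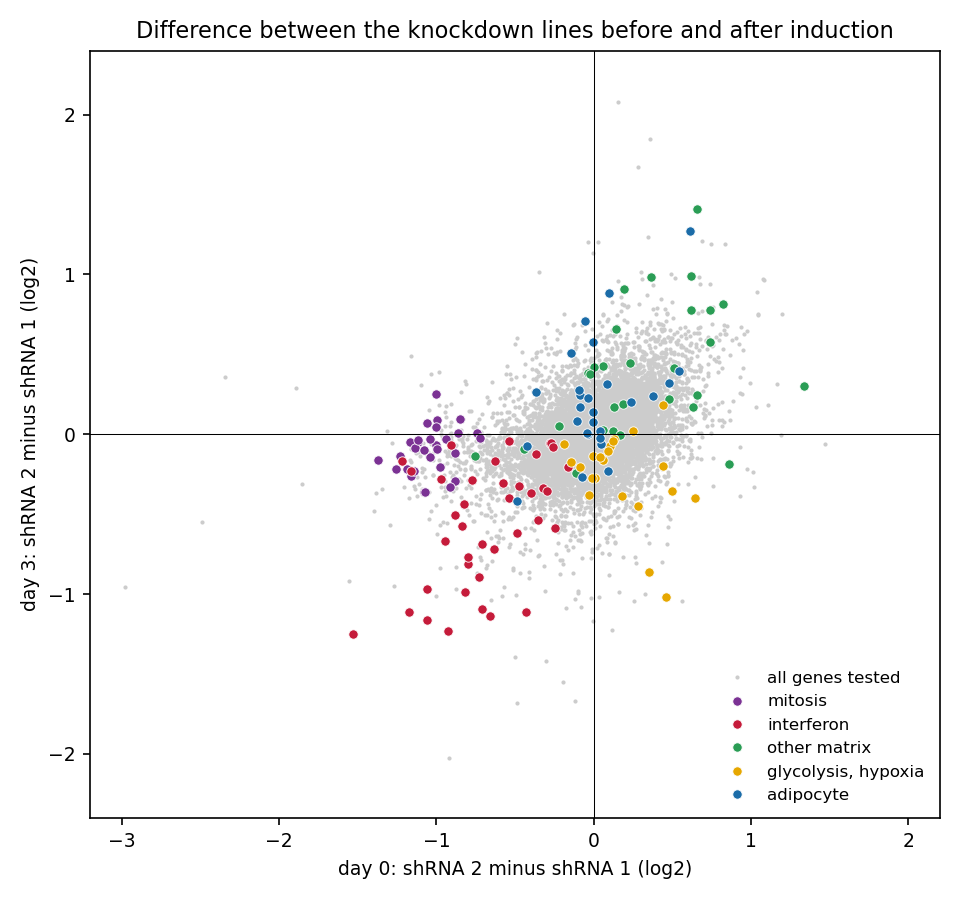
Each point is 1 gene, with the shRNA 2 minus shRNA 1 log2 difference at day 0 on the horizontal axis and at day 3 on the vertical axis; grey points are all genes tested and coloured points the members of 5 lists. Interferon genes lie low on both axes, mitosis genes lie near -1 at day 0 and near 0 at day 3, and matrix genes lie to the upper right.

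Placed against the scramble controls, more genes were called with shRNA 1 than with shRNA 2. Over both days, 6199 of 13371 genes were called between shRNA 1 and control (46.4%) and 3948 between shRNA 2 and control (29.5%). These comparisons share their controls, so their values are only set side by side, and the difference of the counts was not tested. Of the 1866 genes higher with shRNA 2 than with shRNA 1, shRNA 1 was called below control for 1423 (76.3%) and shRNA 2 above control for 578 (31.0%), against 23.1% and 14.9% of all genes. Of the 1691 lower genes, shRNA 1 was called above control for 1223 (72.3%) and shRNA 2 below control for 588 (34.8%), against 23.3% and 14.7%. The genes were chosen with the same hairpin libraries that are counted here, which raises these shares, so nothing is read from them. Both lines were called off control in the same direction for 274 of the higher and 214 of the lower genes. The share over all genes was not counted for this, so nothing is read from these counts either.

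Genes induced by interferon were lower with shRNA 2 on both days. These are antiviral genes that interferon switches on through a DNA element called the interferon-stimulated response element. Of 39 list members tested, 31 were called lower and 0 higher over both days, against 12.8% of all genes called lower. Their median difference was -0.63, with members from -1.39 to -0.16, where all genes tested had a median of 0.00. By day, 34 were called lower at day 0 (16.2% of all genes, list median -0.71) and 20 at day 3 (10.1%, -0.50). At day 3 many members had few reads, and on rebuilt reads with limma's voom the day 3 median was -1.05. The day 0 median stayed at -0.73 to -0.65 in every alternative that kept all libraries. So the gap was narrower at day 3 than at day 0 on the deposited scale and wider with voom.

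The promoters of 3 of these genes are printed because they hold that element and were among the 12 largest falls of the pooled comparison. Each is the RefSeq window of GRCm38.p6 from 250 bases before to 50 after the start site, on the strand of the gene, with capitals marking GAAA, any 2 bases and GAAA on either strand (overlapping matches counted). Ifit1 lies at chr19:34640639-34640938 (plus strand), Isg15 at chr4:156200769-156201068 (minus) and Gbp2 at chr3:142620413-142620712 (plus).
Ifit1: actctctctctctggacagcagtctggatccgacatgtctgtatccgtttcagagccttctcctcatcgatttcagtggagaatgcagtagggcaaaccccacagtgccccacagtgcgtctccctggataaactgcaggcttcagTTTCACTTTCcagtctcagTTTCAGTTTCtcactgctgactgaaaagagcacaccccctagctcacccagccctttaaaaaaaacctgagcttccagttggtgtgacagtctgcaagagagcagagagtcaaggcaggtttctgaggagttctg
Isg15: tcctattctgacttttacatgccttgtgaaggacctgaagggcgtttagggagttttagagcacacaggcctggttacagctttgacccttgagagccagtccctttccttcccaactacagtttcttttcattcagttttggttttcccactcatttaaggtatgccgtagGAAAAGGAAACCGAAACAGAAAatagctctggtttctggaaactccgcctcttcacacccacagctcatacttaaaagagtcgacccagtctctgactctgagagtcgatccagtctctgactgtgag
Gbp2: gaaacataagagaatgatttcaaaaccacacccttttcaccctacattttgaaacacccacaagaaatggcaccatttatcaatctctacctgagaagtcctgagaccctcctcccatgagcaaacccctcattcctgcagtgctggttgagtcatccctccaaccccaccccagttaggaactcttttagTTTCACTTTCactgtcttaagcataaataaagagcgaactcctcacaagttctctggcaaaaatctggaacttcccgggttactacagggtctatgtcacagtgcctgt
Ifit1 held 2 matches, first bases at -104 and -85 from the start site, Isg15 held 3 overlapping ones at -78, -72 and -66, and Gbp2 held 1 at -59. By symbol, 30 list members were matched to RefSeq, and 20 of their 34 promoters held the motif (58.8%), against 1131 of all 32851 promoters of that length (3.44%). A match is a description of these letters only.

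Gbp2, a guanylate-binding GTPase, had 1527 and 1443 normalised reads with shRNA 1 and 685 and 683 with shRNA 2 at day 0, and 495 and 453 against 218 and 173 at day 3. Both shRNA 2 libraries lay under both shRNA 1 libraries on each day, and the pooled difference was -1.11 ± 0.07, adjusted p = 1.7e-07. Controls had 1225 to 1500.3 at day 0, with or near shRNA 1, and 197 to 217 at day 3, with shRNA 2. Iigp1, another interferon-induced GTPase, lay in the same order, with 704 and 545 against 225 and 169.7 at day 0 and 96.5 and 101 against 28.98 and 26.4 at day 3 (-1.39 ± 0.11, adjusted p = 1.4e-06). Rsad2, which codes for the antiviral enzyme viperin, had 166 and 157 against 48.3 and 73.3 at day 0 and 30.7 and 52.9 against 5.996 and 9.88 at day 3 (-1.14 ± 0.14, adjusted p = 4.8e-05). For both genes shRNA 2 was lower on both days without overlap.

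Ifit1, whose protein binds foreign RNA, was abundant at day 0 and scarce at day 3. It had 4442 and 3489 normalised reads with shRNA 1 and 2394 and 1703 with shRNA 2 at day 0, then 260.1 and 315 and 107 and 105 (-1.08 ± 0.13, adjusted p = 3.6e-04 over both days). Isg15, a ubiquitin-like protein attached to other proteins, had 3399 and 2679 against 1780.4 and 1103 at day 0 and 296 and 213 against 116 and 114 at day 3 (-1.02 ± 0.16, adjusted p = 0.0034). Replicates of these genes were far apart at day 0 but did not cross between the lines. Isg15 was called at day 0 alone (-1.06 ± 0.28, adjusted p = 0.044) and not at day 3 (-0.97 ± 0.28, adjusted p = 0.079). The day 0 call of Isg15 was lost without shRNA 1 day 0 replicate 1 (-0.90, adjusted p = 0.11), and without either shRNA 2 library of day 3 (-1.06, adjusted p = 0.10). Rtp4, a chaperone of receptors, differed by -0.90 ± 0.13, adjusted p = 1.9e-04, and Gbp6, of the family of Gbp2, by -0.95 ± 0.22, adjusted p = 0.018. The call of Gbp6 was lost without shRNA 2 day 0 replicate 2 (-0.95, adjusted p = 0.060) and without shRNA 2 day 3 replicate 1 (-0.95, adjusted p = 0.052).

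Irf9, Irf7 and Usp18, which act in regulating the response, were chosen after their values were seen. Irf9, a transcription factor of the response, differed over both days by -0.33 ± 0.06, adjusted p = 0.0017 and Irf7, which amplifies interferon production, by -0.47 ± 0.15, adjusted p = 0.039. The call of Irf7 was lost without 4 libraries in turn: shRNA 1 day 0 replicate 1 (-0.39, adjusted p = 0.11), shRNA 2 day 0 replicate 2 (-0.33, 0.10), shRNA 1 day 3 replicate 1 (-0.40, 0.11) and shRNA 2 day 3 replicate 1 (-0.43, 0.11). Usp18, the protease that removes Isg15 and dampens the receptor, was not called (-0.63 ± 0.21, adjusted p = 0.060). Of 15 genes of antigen presentation by MHC class I, 8 were called lower and 0 higher, against 12.8% of all genes called lower (median -0.20), among them H2-Q4 at -0.72 ± 0.09, adjusted p = 5.1e-05 and H2-D1 at -0.34 ± 0.05, adjusted p = 5.9e-04. Class I genes are near copies of each other, so reads could be split between them. Cxcl10, a chemokine induced by interferon, had 129 and 107 against 65.9 and 64.9 at day 0 and 277 and 263 against 125 and 102 at day 3 (-0.85 ± 0.11, adjusted p = 9.7e-05).

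Relative to the control mean of the day, the mean log2 level of the interferon list at day 0 was 0.03 and -0.18 with shRNA 1 and -0.60 and -0.90 with shRNA 2, while the 4 controls ran from -0.22 to 0.19. At day 3 it was 0.46 and 0.43 with shRNA 1 and -0.08 and -0.13 with shRNA 2, with controls from -0.03 to 0.03. So shRNA 2 lay under the controls on both days, by little at day 3, and shRNA 1 lay within them at day 0 and above them at day 3. In the separate libraries of days 7 and 11 the order was the opposite: 26 of 39 members were called higher with shRNA 2 and 0 lower (median 0.995, with 10.4% of all genes called higher). The difference between the early and late values was not tested.

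**Figure D2:**
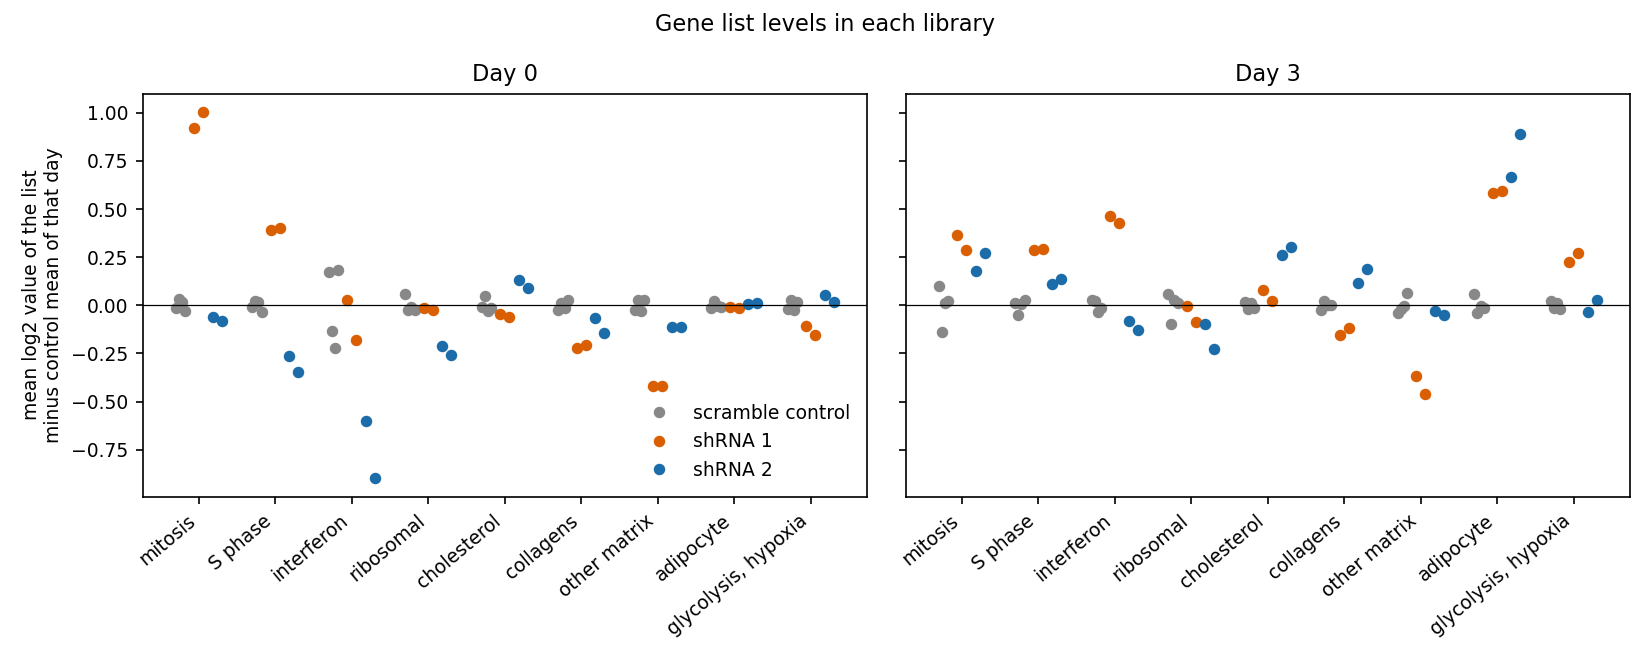
Mean log2 level of 9 gene lists in each library, minus the mean of the 4 control libraries of the same day, for day 0 (left) and day 3 (right); each point is 1 library. At day 0 the mitosis list is near 1 with shRNA 1 and near 0 with shRNA 2 and control, and the interferon list is lowest with shRNA 2.

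Cell cycle genes were lower with shRNA 2 at day 0, and most of that gap was gone at day 3. All 30 genes of the mitosis list were called lower at day 0, where 16.2% of all genes were, with a median of -1.04 and members from -1.37 to -0.72. At day 3, 4 of them were called lower and 1 higher, against 10.1% and 11.7% of all genes, with a median of -0.09 that ran from -0.14 without shRNA 2 day 3 replicate 2 to -0.01 without shRNA 2 day 3 replicate 1 and was -0.03 without shRNA 1 day 3 replicate 1. The change between the days was called for all 30 (7.14% of all genes were called in that direction), with a median of 0.94. On the list of S phase genes, which serve DNA replication, 29 of 30 were called lower at day 0 (median -0.68) and 10 at day 3 (10.1% of all genes, list median -0.16). Set against control over both days, all 30 mitosis genes were called higher with shRNA 1 (23.3% of all genes, list median 0.66). With shRNA 2, 10 were called higher and 1 lower (14.9% and 14.7% of all genes, list median 0.08). At day 0 the mean log2 level of the mitosis list, relative to the control mean, was 0.92 and 1.005 with shRNA 1. With shRNA 2 it was -0.06 and -0.08, and controls ran from -0.03 to 0.03. At day 3 it was 0.36 and 0.29 with shRNA 1 and 0.18 and 0.27 with shRNA 2, above controls at -0.14 to 0.10. The S phase list lay on both sides of control at day 0: relative to the control mean, its mean log2 level was 0.39 and 0.40 with shRNA 1, -0.26 and -0.35 with shRNA 2, and -0.03 to 0.02 in controls. At day 3 it was 0.29 and 0.29 with shRNA 1 and 0.11 and 0.14 with shRNA 2, above controls at -0.05 to 0.03.

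The promoters of Cdc20 and Top2a are shown as those of members called at day 0 and not at day 3, and both genes were chosen after their values were seen. Mitosis genes are known to be controlled through CCAAT boxes and a nearby element called the cell cycle genes homology region, and capitals mark CCAAT and TTTGAA on either strand. Cdc20 lies at chr4:118437294-118437593 (minus strand) and Top2a at chr11:99024140-99024439 (minus), in the same window and build.
Cdc20: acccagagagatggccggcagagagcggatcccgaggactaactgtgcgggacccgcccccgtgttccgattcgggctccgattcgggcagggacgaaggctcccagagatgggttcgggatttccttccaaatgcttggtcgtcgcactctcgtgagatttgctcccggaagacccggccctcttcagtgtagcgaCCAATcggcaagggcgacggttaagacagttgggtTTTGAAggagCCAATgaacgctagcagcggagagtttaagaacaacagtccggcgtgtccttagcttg
Top2a: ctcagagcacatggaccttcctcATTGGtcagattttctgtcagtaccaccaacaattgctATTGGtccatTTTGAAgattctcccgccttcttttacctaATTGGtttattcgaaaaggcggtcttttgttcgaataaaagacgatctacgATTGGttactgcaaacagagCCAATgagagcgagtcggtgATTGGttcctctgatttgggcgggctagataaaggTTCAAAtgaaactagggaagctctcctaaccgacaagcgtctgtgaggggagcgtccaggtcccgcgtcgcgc
Cdc20 held CCAAT at -53 and -8 and TTTGAA at -18. Top2a held CCAAT 6 times, from -227 to -58, and TTTGAA 2 times, at -179 and -23. Of 28 promoters of 26 matched mitosis genes, 22 held TTTGAA (78.6%) and 23 held CCAAT (82.1%), against 17.9% and 37.4% of all promoters. The S phase list had 10.0% with TTTGAA and 56.7% with CCAAT.

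Cdc20, the activator of the anaphase-promoting complex, had 1309.8 and 1369 normalised reads with shRNA 1 at day 0, 545 and 576 with shRNA 2 and 537 to 597 in controls. At day 3 the values were 402 and 339, 342 and 369 and 240.1 to 292. So shRNA 2 overlapped the controls at day 0, while shRNA 1 was higher than both, and at day 3 the hairpin lines overlapped. The difference was -1.16 ± 0.09, adjusted p = 1.7e-11 at day 0 and -0.05 ± 0.09, adjusted p = 0.75 at day 3. Top2a, which untangles DNA before division, had 4766 and 4759.8 with shRNA 1 against 2251 and 2264 with shRNA 2 at day 0 (-1.04 ± 0.04, adjusted p = 4.0e-17) and 7164 and 7219 against 6897 and 7165 at day 3 (-0.03 ± 0.04, adjusted p = 0.67). Mki67, the usual marker of dividing cells, changed sides, from 2571 and 2708 against 1311 and 1242 at day 0 (-1.002 ± 0.06, adjusted p = 2.9e-14) to 1673 and 1699 against 1957 and 2095 at day 3 (0.25 ± 0.06, adjusted p = 0.0016). Its day 3 call was lost in a fit of all 32 libraries (adjusted p = 0.12).

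Birc5 (survivin), Aurkb (the Aurora B kinase) and Cenpf (a kinetochore protein) differed at day 0 by -1.08 ± 0.09, -1.07 ± 0.11 and -1.26 ± 0.10. Their adjusted p-values were 1.7e-10, 7.3e-09 and 3.1e-11. At day 3 the same genes differed by -0.36, -0.36 and -0.21, of which Cenpf was not called (adjusted p = 0.13). The day 3 call of Aurkb was lost without shRNA 1 replicate 1 (-0.34), shRNA 1 replicate 2 (-0.38) or shRNA 2 replicate 2 (-0.27) of that day. It was also lost with no filter on low genes (adjusted p = 0.071), without limma's trend and robust options (0.068) and in 1 fit of all 32 libraries (0.058). Ccne2, the cyclin that starts S phase, was among the 12 largest falls of the pooled comparison, with 418 and 400.1 against 141 and 134 at day 0 and 1129 and 1022 against 792 and 710.4 at day 3. Cdt1, which loads the replicative helicase, had 905 and 1000.3 against 360.1 and 322 and then 1540.0 and 1529 against 1112 and 1236. For both genes shRNA 2 was lower on each day without overlap, and the gap narrowed (change 0.92 ± 0.13, adjusted p = 9.1e-06 for Ccne2 and 1.02 ± 0.11, adjusted p = 7.3e-08 for Cdt1). Mcm3, a subunit of that helicase, differed by -0.96 ± 0.06, adjusted p = 1.2e-13 at day 0 and by -0.19 ± 0.06, adjusted p = 0.018 at day 3. That day 3 call was lost without shRNA 1 replicate 2 (-0.16, adjusted p = 0.16) or shRNA 2 replicate 1 (-0.12, 0.22).

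**Figure D3:**
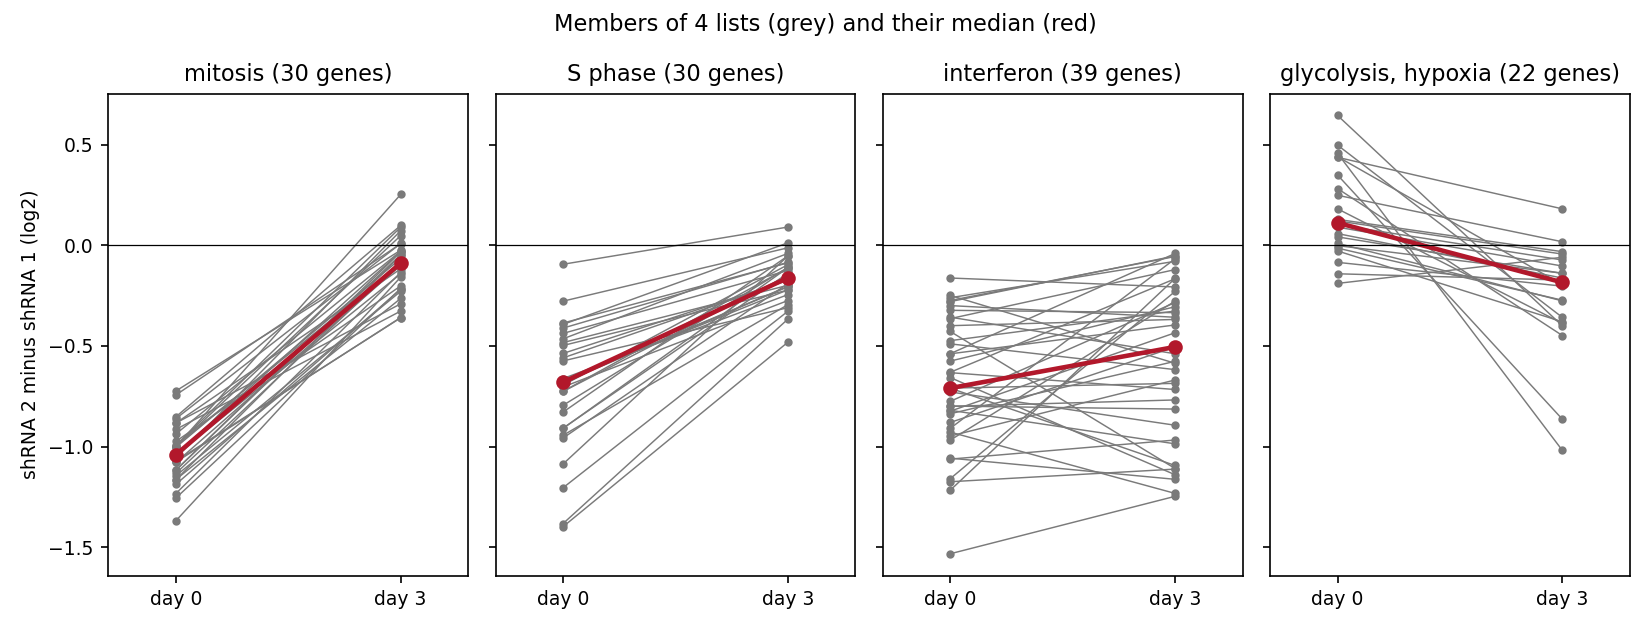
Difference between the hairpin lines (shRNA 2 minus shRNA 1, log2) at day 0 and day 3 for the members of 4 lists; grey lines join the values of 1 gene and red lines the list medians. On the deposited scale the mitosis median goes from -1.04 to -0.09 and that of the interferon list from -0.71 to -0.50. The median of the glycolysis and hypoxia list crosses 0 downwards. With voom on rebuilt reads the day 3 interferon median was -1.05, a wider gap than at day 0.

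Genes that set the pace of the G1 phase went in both directions. Of 14 cyclin-dependent kinase regulators tested, 5 were called higher and 1 lower over both days (median 0.08), against 14.1% and 12.8% of all genes. Ccnd3, a D-type cyclin, had 2295 and 2425 with shRNA 1 and 4016 and 3869.7 with shRNA 2 at day 0, and 6148 and 6319 against 9316 and 9675 at day 3 (0.65 ± 0.04, adjusted p = 1.2e-07). Controls had 3749.8 to 4122 and 9263 to 9499.7, so that shRNA 1 stood alone below. Cdkn2b, an inhibitor of the kinases bound by D-type cyclins, was also higher with shRNA 2, at 0.41 ± 0.05, adjusted p = 7.7e-05. Rbl1, a retinoblastoma family protein that is itself a cell cycle target, was lower (-0.46 ± 0.08, adjusted p = 0.0014), mainly at day 0.

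Matrix genes were higher with shRNA 2 on both days. Of 29 members of the list of matrix proteins other than collagens, 17 were called higher and 1 lower over both days, against 14.1% of all genes called higher (median 0.34). Of 17 collagens, 9 were called higher and 1 lower (median 0.27), and at day 3 alone 13 were called higher and 0 lower, against 11.7% of all genes called higher. Against control, 23 of the matrix genes were called lower with shRNA 1 and 0 higher (23.1% of all genes called lower, list median -0.26), while 7 were higher and 10 lower with shRNA 2 (14.9% and 14.7% of all genes, list median -0.03). Of 11 fibroblast marker genes, which overlap this list, 6 were called higher and 2 lower, against 14.1% and 12.8% of all genes. Their summed levels over both days overlapped between the lines. They were 198720 to 568629 normalised reads with shRNA 1 and 215001 to 605709 with shRNA 2. Whether a shift in the mix of cells has a part in this was not tested, and in bulk samples fewer cells of a type and less RNA per cell cannot be told apart.

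Lum, which codes for the collagen-binding proteoglycan lumican, had 36.1 and 23.02 normalised reads with shRNA 1 and 49.2 and 67.7 with shRNA 2 at day 0, and 164 and 107 against 392 and 430.4 at day 3. It was the largest rise by the naming rule (1.04 ± 0.18, adjusted p = 0.0015), and the lines did not overlap on either day. Dcn, for the related decorin, had 10471 and 10509 against 16120.2 and 16532 at day 0 and 11879.5 and 10988 against 20909.9 and 18920.2 at day 3 (0.70 ± 0.05, adjusted p = 1.9e-07). Controls were higher still, at 21043 to 21693 and 26903 to 29232, and both lines were called below them (-1.12 for shRNA 1, -0.43 for shRNA 2). Thbs2, for thrombospondin 2, showed the same order, with 1797 and 1725 against 3552 and 3651 at day 3 and 4652 to 5048 in controls (0.81 ± 0.06, adjusted p = 8.6e-06 between the lines). Postn, for periostin, had 30355 and 33425 against 52404 and 55616 at day 0 and 20218 and 18773 against 32544 and 35276 at day 3 (0.76 ± 0.04, adjusted p = 9.8e-08), and here shRNA 2 was called above control (0.26).

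Among collagens, Col3a1 had 72449 and 75549 with shRNA 1 and 101766 and 100097 with shRNA 2 at day 0, and 71659.6 and 70011 against 99679.9 and 105429 at day 3 (0.48 ± 0.04, adjusted p = 9.4e-07). Col1a1, for the main chain of fibrillar collagen I and named after its values were seen, differed by 0.28 ± 0.05, adjusted p = 5.1e-04, and Col8a1, a short-chain collagen, by 0.65 ± 0.10, adjusted p = 3.1e-04. Of 20 matrix proteases and inhibitors tested, 7 were called higher and 4 lower, against 14.1% and 12.8% of all genes. Adam12, a membrane-bound metalloprotease, was higher with shRNA 2 (0.62 ± 0.07, adjusted p = 2.9e-05).

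The median difference of the fat cell list between the lines was small on each day, and the list leaned one way at day 3. Of 27 adipocyte genes tested, 5 were called higher and 3 lower with shRNA 2 at day 0 (17% and 16.2% of all genes), with a median of -0.0025. At day 3, 14 were called higher and 1 lower (11.7% and 10.1%), with a median of 0.20, which was 0.13 without shRNA 2 day 3 replicate 2. Both lines stood above control at day 3: relative to the control mean, the mean log2 level of the whole list was 0.58 and 0.59 with shRNA 1 and 0.67 and 0.89 with shRNA 2, and the controls ran from -0.04 to 0.06. Replicates of shRNA 2 were further apart than the gap between the lines.

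Pparg, the receptor that drives fat cell formation, had 3736 and 3832 normalised reads with shRNA 1 and 4155 and 4387 with shRNA 2 at day 3, and 2981 to 3171 in controls. Its day 3 difference was 0.17 ± 0.06, adjusted p = 0.030. This call was lost without shRNA 1 replicate 1 (0.15), shRNA 1 replicate 2 (0.19) or shRNA 2 replicate 2 (0.13) of day 3. It was also lost with no filter on low genes (adjusted p = 0.063) and without limma's trend and robust options (adjusted p = 0.10). Cebpa, its partner, had 2351 and 2938 with shRNA 1 and 2321 and 3005 with shRNA 2, against 1373 to 1434 in controls, and the lines overlapped (0.01 ± 0.12, adjusted p = 0.98). Cebpb and Cebpd act earlier in the programme. Cebpb had 7763 and 8577 against 6081 and 5476 at day 0 (-0.48 ± 0.08, adjusted p = 8.3e-04) and overlapped at day 3 (0.03). Its day 0 call was lost in 1 fit of all 32 libraries (adjusted p = 0.071). Cebpd was not called at day 0 (0.11 ± 0.05, adjusted p = 0.12) and was lower with shRNA 2 at day 3, with 3923 and 4243 against 2859 and 2789.9 (-0.51 ± 0.05, adjusted p = 1.1e-08).

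Fabp4, which carries fatty acids, had 91.5 and 96.5 normalised reads with shRNA 1 and 72.02 and 59.3 with shRNA 2 at day 0, and 9582 and 10258 against 11956 and 12030.4 at day 3. The lines did not overlap on either day, and the sign changed, from -0.37 ± 0.07, adjusted p = 1.0e-04 to 0.27 ± 0.07, adjusted p = 0.0047. Leaving out shRNA 1 replicate 1 of that day ended its day 3 call (0.22, adjusted p = 0.12), as did 1 fit of all 32 libraries (adjusted p = 0.18) and a fit without limma's trend and robust options (adjusted p = 0.058). With voom the day 0 difference was -0.52 and not called (adjusted p = 0.084). Adipoq, for the hormone adiponectin, had 3 reads or fewer in each library at day 0. At day 3 it had 85.2 and 46.6 with shRNA 1, 52.96 and 69.2 with shRNA 2 and 5.32 to 10.6 in controls, and the lines overlapped (-0.06 ± 0.19, adjusted p = 0.86). Plin1, which coats the lipid droplet, overlapped likewise at day 3, with 416 and 521 against 313 and 468 (-0.27 ± 0.16, adjusted p = 0.28). Lpl, which frees fatty acids from blood lipids, was higher at day 3 by 0.25 ± 0.07, adjusted p = 0.036, a call lost without shRNA 1 replicate 1 (0.13, adjusted p = 0.12) or shRNA 2 replicate 2 (0.16, 0.26) of that day, and under 6 of the other alternatives. Dlk1, which holds preadipocytes back from differentiating, was lower with shRNA 2 on both days, with 102827 and 107620.0 against 92184 and 91832 and then 41142 and 38786 against 31913 and 34006 (-0.23 ± 0.04, adjusted p = 7.0e-04).

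Scd1, the desaturase that makes oleic acid and 1 of the 12 largest rises, had 2595 and 2513 with shRNA 1 and 3903 and 4017 with shRNA 2 at day 0, and 6044 and 6470.0 against 14127 and 17089.9 at day 3. Controls had 3477 to 4092 and 6549 to 7196, so that at day 3 shRNA 2 stood above both (1.27 ± 0.06, adjusted p = 4.7e-10 against shRNA 1). Lipe, for hormone-sensitive lipase, and Lpin1, a phosphatidate phosphatase, were higher over both days by 0.47 ± 0.08, adjusted p = 0.0013 and 0.40 ± 0.06, adjusted p = 3.6e-04. Angptl4, an inhibitor of lipoprotein lipase, was the 1 list member called lower over both days (-0.45 ± 0.06, adjusted p = 7.3e-05). Cdo1, which breaks down cysteine and rises in fat cells, had 2345 and 1995 against 5181 and 5126 at day 3, with 3237 to 3658 in controls (0.95 ± 0.10, adjusted p = 3.2e-04 over both days).

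Cholesterol genes were higher with shRNA 2. Of 24 genes of cholesterol synthesis and uptake, 16 were called higher and 0 lower over both days, against 14.1% of all genes called higher (median 0.22). Hmgcs1, which makes HMG-CoA, had 3219.6 and 2967 with shRNA 1 and 4355 and 4263 with shRNA 2 at day 0, and 1673 and 1785 against 2543 and 2443 at day 3 (0.48 ± 0.04, adjusted p = 2.4e-06). Sqle, the squalene epoxidase, differed by 0.34 ± 0.04, adjusted p = 9.7e-05. Set against control, 15 members were called higher and 1 lower with shRNA 2 (14.9% and 14.7% of all genes, list median 0.20), and 7 higher and 5 lower with shRNA 1 (23.3% and 23.1%, list median 0.01).

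The median of the glycolysis and hypoxia list changed sides between the days, though not every member did. Of 22 tested, 10 were called higher and 2 lower with shRNA 2 at day 0 (17% and 16.2% of all genes, list median 0.11), and 1 higher and 14 lower at day 3 (11.7% and 10.1%, -0.18). The change was called downwards for 14 members (4.93% of all genes) and upwards for 0. Ankrd37, a gene induced by hypoxia, had 49.9 and 41.6 against 77.3 and 63.1 at day 0 and 139 and 164 against 49.96 and 80.2 at day 3, when controls had 45.5 to 56.5 (change -1.48 ± 0.24, adjusted p = 5.0e-05). Pfkp, a phosphofructokinase, had 1559 and 1554 against 1511 and 1541 at day 0 and 4056 and 4276 against 3107 and 3235 at day 3 (-0.38 ± 0.05, adjusted p = 1.7e-06). Hk2, the hexokinase at the head of the pathway, was the member called higher at day 3 (0.18 ± 0.05, adjusted p = 0.0093). This call was lost without shRNA 1 replicate 2 (0.16) or shRNA 2 replicate 2 (0.14) of that day. It was also lost with no filter on low genes (adjusted p = 0.055), without limma's trend and robust options (0.12) and in 1 fit of all 32 libraries (0.094).

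Pdk4, which shuts off glucose oxidation and responds to glucocorticoids and fasting, gave the largest downward change of any named gene on the deposited scale. It had 615 and 596 with shRNA 1 and 887 and 941 with shRNA 2 at day 0, and 2620.1 and 2936 against 1284 and 1327 at day 3, with 1068 to 1188 and 2713 to 2875 in controls. So shRNA 2 was the nearer line to control at day 0 and the further at day 3 (change -1.61 ± 0.09, adjusted p = 2.2e-13). On the list of glucocorticoid-induced genes, 10 of 19 were called lower and 2 higher at day 3, against 10.1% and 11.7% of all genes (median -0.18, and -0.11 without shRNA 2 day 3 replicate 2). Tsc22d3, a direct target of the receptor, had 16718 and 15402 against 11934 and 11349.7 at day 3 (-0.45 ± 0.05, adjusted p = 4.2e-08), while Fkbp5, a co-chaperone of that receptor chosen after its values were seen, overlapped, with 26858 and 25390.0 against 25884 and 26432 (0.00 ± 0.05, adjusted p = 0.98).

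Protein synthesis and folding genes were slightly lower with shRNA 2. Of 25 ribosomal protein genes, 21 were called lower and 0 higher, against 12.8% of all genes called lower (median -0.18), and Rps2, of the small subunit, differed by -0.24 ± 0.05, adjusted p = 0.0030. Ribosomal genes have many near copies in the genome, so their counts are uncertain. Of 15 chaperones of the endoplasmic reticulum, 13 were called lower and 0 higher at day 3, against 10.1% called lower (median -0.26), with Hspa5, the main one, at 47722 and 47678 against 39806 and 39144 (-0.27 ± 0.04, adjusted p = 8.6e-06). Of 25 genes of oxidative phosphorylation, 13 were lower and 1 higher (median -0.13). Of 13 genes of the machinery that processes hairpins, 3 were called higher and 1 lower (median 0.00), and of 18 p53 targets 2 and 1. Of 19 homeobox genes that mark the body position of fibroblasts, 3 were higher and 1 lower. Of all genes, 14.1% were called higher and 12.8% lower.

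Of 23 contractile and actin-bound genes, 8 were called higher and 0 lower over both days (median 0.14), against 14.1% and 12.8% of all genes, with Mylk, the myosin light chain kinase, at 0.30 ± 0.07, adjusted p = 0.0087. By day, 10 were higher and 0 lower at day 0 (17% and 16.2% of all genes, list median 0.17) and 7 and 3 at day 3 (11.7% and 10.1%, 0.02), when the lines overlapped in the list's mean level. Of 14 basement membrane genes, 8 were higher and 1 lower (median 0.16, 0.14 at day 0 and 0.24 at day 3), with Nid2, the linker protein nidogen 2, at 0.52 ± 0.05, adjusted p = 5.3e-06. Of 16 antioxidant genes, 2 were higher and 6 lower (median -0.08, -0.15 at day 0 and -0.03 at day 3). Of 20 targets of ATF4, which drives amino acid synthesis under stress, 2 were higher and 8 lower (median -0.08). By day, 10 of the ATF4 targets were called lower at day 0 (median -0.13) and 3 at day 3 (median -0.02), when the lines overlapped in the list's mean level. Phgdh, which starts serine synthesis, differed by -0.31 ± 0.04, adjusted p = 1.9e-04. Chemokines and other targets of NF-κB stood at 5 higher and 4 lower of 19.

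The largest single differences were at day 0. Krt15, a keratin of epithelial filaments, had 240.3 and 285 normalised reads with shRNA 1, 16.7 and 19.5 with shRNA 2 and 47.1 to 58.7 in controls, so that the lines stood on either side of control (-2.98 ± 0.10, adjusted p = 1.6e-19). At day 3 it was expressed more in all groups, with 2489 and 2465, 1242 and 1225 and 1519 to 1702 (-0.95 ± 0.10, adjusted p = 2.4e-08). Prl2c5 and Prl2c3, genes of the proliferin family of growth-related hormones, are near copies of each other, so reads could be split between them. Prl2c3 had 861 and 906 with shRNA 1 at day 0 against 248 and 189 with shRNA 2 and 169.8 to 191 in controls (-1.89 ± 0.11, adjusted p = 3.7e-14), and 239.6 and 262 against 295 and 333 at day 3 (0.29 ± 0.11, adjusted p = 0.058). Prl2c5 differed by -2.49 ± 0.15, adjusted p = 1.2e-13 at day 0 and by -0.55 ± 0.15, adjusted p = 0.0086 at day 3, and leaving out shRNA 1 replicate 2 ended the day 3 call (-0.45, adjusted p = 0.11), as did leaving out shRNA 2 replicate 1 of that day (-0.46, 0.074).

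Mmp3, for the matrix protease stromelysin 1, had the largest change between the days of any named gene on the deposited scale. It had 2161 and 2336 with shRNA 1 at day 0, 385 and 405 with shRNA 2 and 689.5 to 782 in controls (-2.34 ± 0.11, adjusted p = 4.6e-16). At day 3 it had 139 and 125, 204 and 152 and 302 to 359 (change 2.70 ± 0.15, adjusted p = 2.0e-13). Spp1, for the secreted phosphoprotein osteopontin, was named after its values were seen, and had 27419.8 and 27209 with shRNA 1 against 7335 and 7159 with shRNA 2 at day 0, when controls had 12614 to 13086 (-1.86 ± 0.05, adjusted p = 2.3e-20), and 4801 and 4122 against 3554 and 3562 at day 3. Fgf23, a hormone of phosphate balance, went the other way at day 0, with 44.4 and 34.5 with shRNA 1 and 141 and 168 with shRNA 2 (1.47 ± 0.17, adjusted p = 6.6e-08), while controls had 157 to 202. At day 3 it had 0 and 4.23 with shRNA 1, 2.998 and 0 with shRNA 2 and 3.17 to 7.44 in controls.

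Other genes differed most at day 3. Cytip, which binds the cytohesin family of trafficking factors, had 31.4 and 61.97 with shRNA 1 and 14.9 and 14.8 with shRNA 2 at day 0, and 585 and 497 against 101 and 101 at day 3, when controls had 41.3 to 69.4 (-2.03 ± 0.18, adjusted p = 5.4e-10). The lines did not overlap on either day, and at day 3 both lay above every control, shRNA 1 the further. Pdzd7, a scaffold protein, had 139.7 and 166 against 26.98 and 34.04 at day 3, with 65.9 to 109 in controls (-1.67 ± 0.17, adjusted p = 7.2e-09), and overlapped at day 0. Agtr2 and Ren1, chosen after their values were seen, were higher with shRNA 2. Agtr2, the type 2 angiotensin receptor, had 28.4 and 47.6 with shRNA 1, 183 and 248 with shRNA 2 and 64.5 to 80.8 in controls at day 3 (1.85 ± 0.18, adjusted p = 5.4e-09). Ren1, for renin, had 23.8 and 33.9, 156 and 282 and 28.4 to 45.003 (2.08 ± 0.19, adjusted p = 1.8e-09), so that for both genes shRNA 2 stood above both other groups. At day 0 Agtr2 had 0.924 and 1.77 with shRNA 1 and 7.91 and 4.64 with shRNA 2, and Ren1 had 0 and 0 and 2.64 and 0.927.

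**Figure D4:**
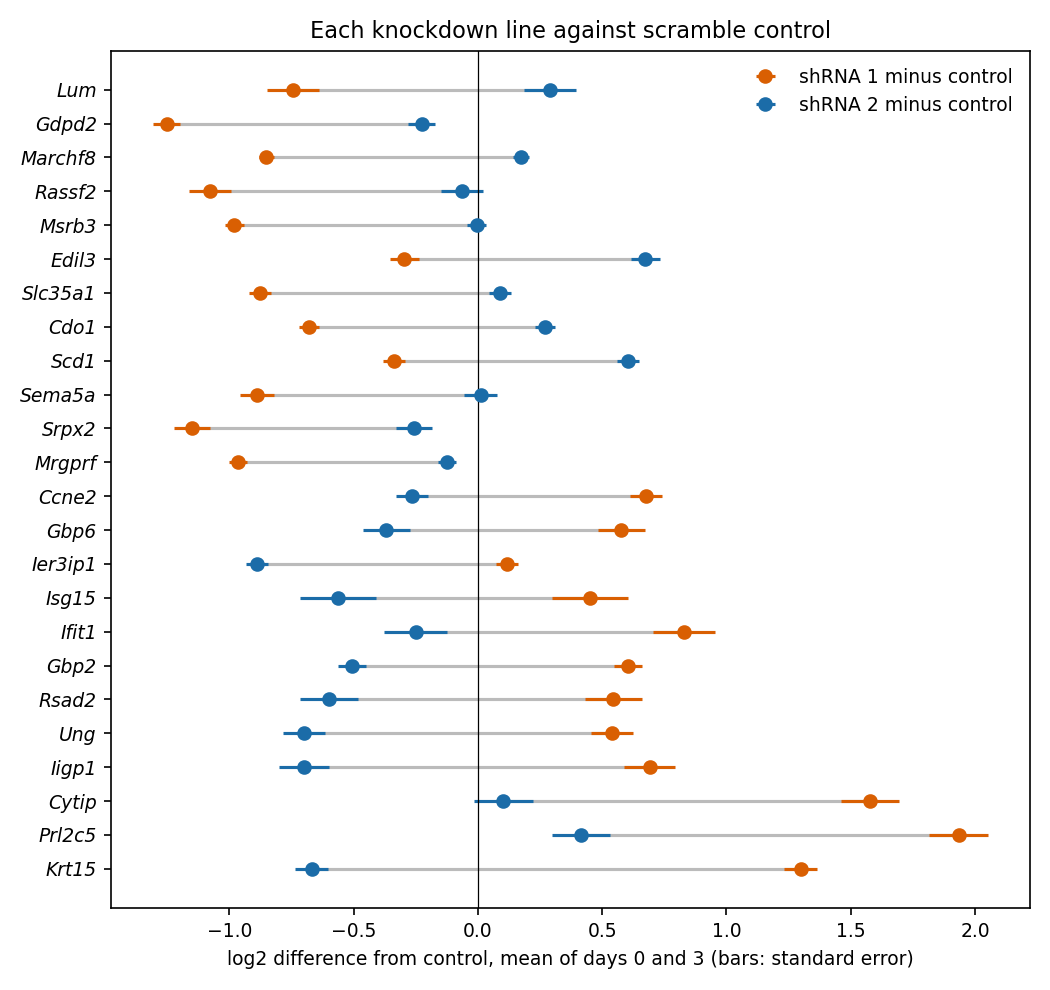
For the 12 largest rises and 12 largest falls of the pooled comparison, the log2 difference of each hairpin line from the scramble control over days 0 and 3, with standard errors as bars; the grey line joins both values of a gene. Most rises have shRNA 1 well left of 0 and shRNA 2 near it, while Ier3ip1 has shRNA 2 left of 0 and shRNA 1 near it. The genes were chosen by the gap between these lines, so nothing is read from where the lines lie.

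The 12 largest rises, in order, were Lum, Gdpd2, Marchf8, Rassf2, Msrb3, Edil3, Slc35a1, Cdo1, Scd1, Sema5a, Srpx2 and Mrgprf. For 10 of them the line with shRNA 1 was at least 0.68 (log2) under control. They were chosen by the gap between the same hairpin libraries, which favours this, so nothing is read from that count. Gdpd2, a phosphodiesterase of membrane lipids, stood at -1.25 from control with shRNA 1 and -0.23 with shRNA 2, Msrb3, which repairs oxidised methionine, at -0.98 and -0.01, and Srpx2, a secreted sushi-repeat protein, at -1.15 and -0.26. Rassf2, a Ras-association domain protein, had 1338 and 1222 with shRNA 1 and 2323 and 2377 with shRNA 2 at day 0, and 478 and 346 against 896 and 1073 at day 3 (1.01 ± 0.11, adjusted p = 2.7e-04). Edil3, an integrin-binding matrix protein, was the rise with shRNA 2 furthest above control (0.67, beside -0.30 for shRNA 1).

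A smaller set differed on every day sampled. Of 13116 genes tested at both ends of the time course, 375 were called in the same direction at days 0, 3, 7 and 11 (2.86%), 215 higher and 160 lower with shRNA 2. The genes named from this set are among the 24 with the largest smallest daily difference and were chosen after their values were seen. Some were further from control in the shRNA 1 line. Marchf8, a membrane-bound ubiquitin ligase, had 2135 and 2166 with shRNA 1, 4726 and 4638 with shRNA 2 and 3872 to 4042 in controls at day 0, and 1158 and 1099, 2259 and 2286 and 2017 to 2251 at day 3. Its differences were 1.08, 0.97, 1.03 and 0.93 on the 4 days. Over days 0 and 3 it stood at -0.85 from control with shRNA 1 and 0.17 with shRNA 2, both called. Slc35a1, which carries CMP-sialic acid into the Golgi, had 403 and 408 against 866 and 889 at day 0, with 827 to 842 in controls, and differed by 1.04, 0.89, 0.81 and 0.58. Timm8b, of the mitochondrial import machinery, had 261 and 259 against 531 and 529 and 473 to 536 in controls. Fgf10, a growth factor of fat and lung development, had 478 and 523 against 814 and 946 and 819 to 979.5.

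The first 3 of the next genes were further from control in the shRNA 2 line. Ier3ip1, a small protein of the endoplasmic reticulum, had 874 and 873 with shRNA 1, 422 and 412 with shRNA 2 and 771 to 889 in controls at day 0, and 1273 and 1287, 643 and 574 and 1109.6 to 1168 at day 3. Its differences on the 4 days were -1.0004, -1.01, -0.87 and -0.79, and over days 0 and 3 it stood at 0.12 from control with shRNA 1 and -0.89 with shRNA 2, both called. Nras, the small GTPase, had 2832 and 2927 against 1698 and 1841 and 2935 to 3173 in controls at day 0 (-0.75 ± 0.05, adjusted p = 1.3e-07 over both days). Atp6ap2, the prorenin receptor and a partner of the proton pump, had 3555 and 3451 against 2138 and 1961 and 3523 to 3791 (-0.81 ± 0.05, adjusted p = 9.7e-08). Ung, which removes uracil from DNA, stood off on both sides, with 223 and 267 with shRNA 1, 57.97 and 74.2 with shRNA 2 and 139 to 162 in controls at day 0 (-1.24 ± 0.14, adjusted p = 5.4e-05). Hmox1, the heme oxygenase, was high in the shRNA 1 line, at 8557 and 8626 against 4659.6 and 4523 with shRNA 2 and 4822 to 5054 in controls (-0.85 ± 0.06, adjusted p = 9.1e-07).

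**Figure D5:**
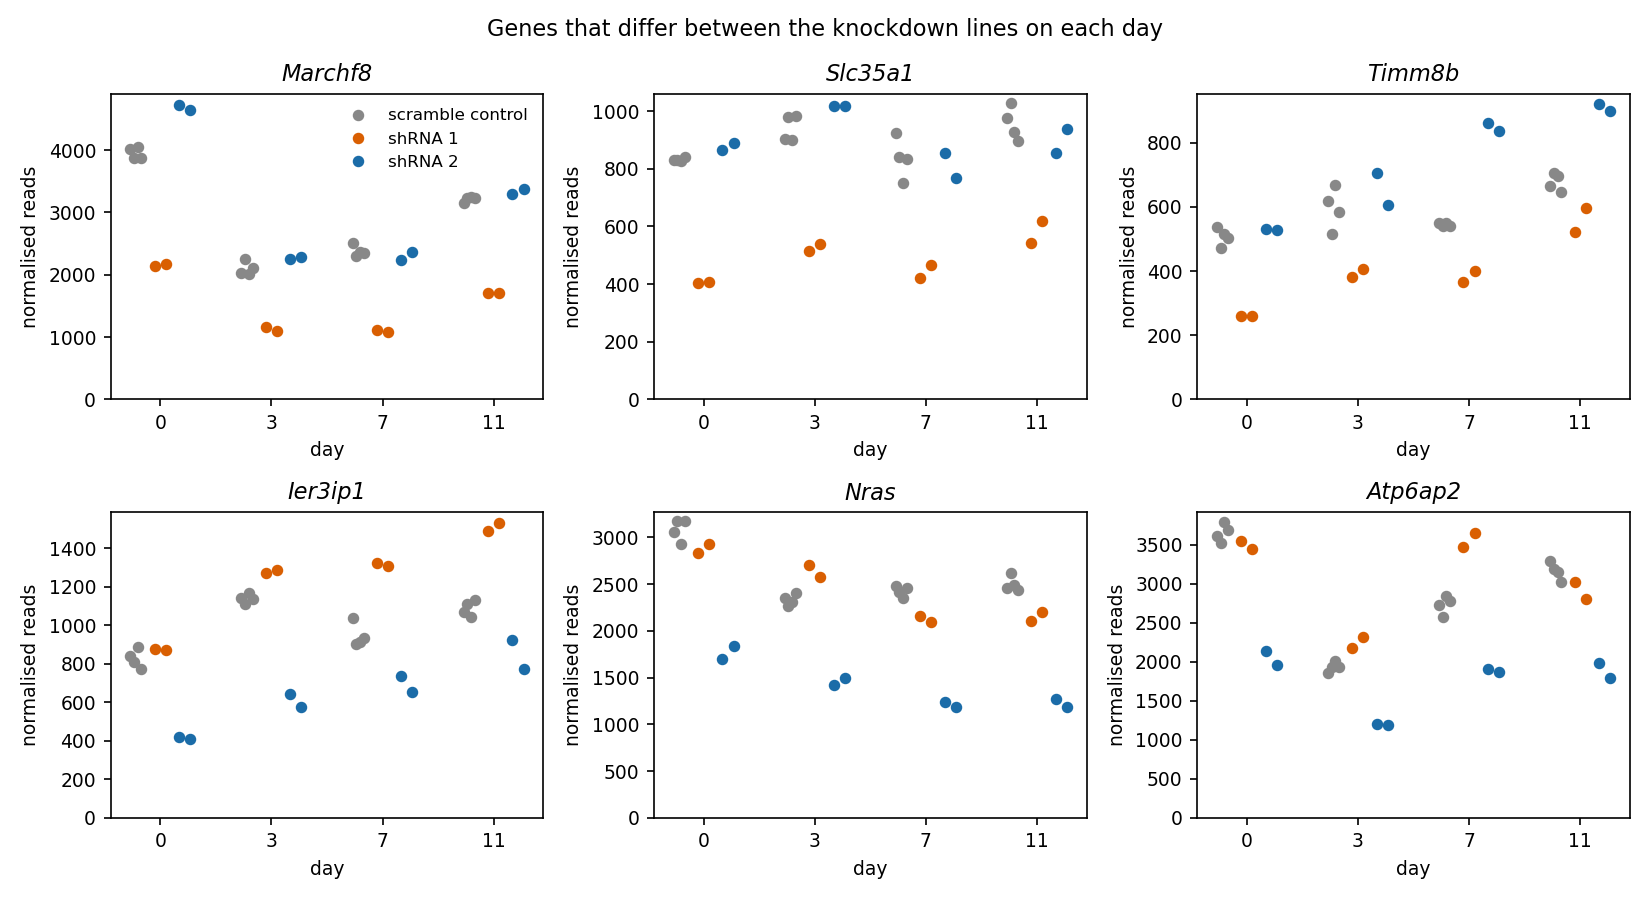
Normalised reads in each library at days 0, 3, 7 and 11 for 6 genes called on all 4 days; each point is 1 library, and axes start at 0. Marchf8, Slc35a1 and Timm8b are low with shRNA 1 and Ier3ip1, Nras and Atp6ap2 low with shRNA 2, without overlap between the hairpin lines on any of the 4 days.

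In the 8 separate libraries of days 7 and 11, 2882 of 13309 genes were called between the hairpin lines (21.7%), of which 48.2% were higher with shRNA 2, or 58.8% of 2915 with libraries rescaled to equal totals. Of the genes tested in both pairs of days, 1469 were called in the same direction early and late, which is 41.4% of the early and 51.4% of the late calls, and 67 in opposite directions. Matrix genes leaned the same way late, with 11 called higher and 3 lower of 28 (median 0.20, with 10.4% and 11.2% of all genes called), and mitosis genes did not pass, with 0 higher and 0 lower of 30 (median -0.26).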

How the data were processed

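RNA from 3T3-L1 cells was extracted with a QIAshredder and RNeasy mini kit and made into libraries with an Illumina TruSeq RNA kit, per the labels' protocols. TopHat2 2.1.0, Bowtie2 2.2.6, SAMtools 1.3.1 and HTSeq 0.6.1 are named in the submitters' processing notes. The transform, genome build, annotation and strand setting are not given in the sources used here. The authors deposited 1 table of log2 values for 20560 genes and 32 libraries. Its values behave as regularized log2 values: inverting such a transform gave reads within 0.1 of a whole number for 99.2% of values (20.0% if spread evenly), and these rebuilt reads gave depth and normalised reads.

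Differences were tested with limma 3.58.1 (R 4.3.3; mean-variance trend, robust empirical Bayes, Benjamini-Hochberg) on the deposited log2 values, for genes with 2 to the power of the value at least 10 in at least 4 libraries of the fit. The 8 knockdown libraries of days 0 and 3 were fitted with day as a block, and as 4 groups for each day and for the change between days. Each line was placed in a fit with the controls, and the libraries of days 7 and 11 were fitted apart. Errors printed after ± are standard errors. The scripts were tested on simulated data.

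The libraries and gene lists were chosen with earlier results of these data known. Genes are named by this rule: Zbtb9 and 10 fat cell and division markers, the 12 largest called rises and falls whose lines did not overlap on either day and whose higher line averaged at least 50 (2 to the power of the value), the 4 largest called changes between days in each direction, and up to 6 called members of each list. Others are said to be named after their values were seen. Some members are not reported here. Replicate numbers did not pair the libraries: same-numbered deviations correlated at 0.013 at day 0 and 0.063 at day 3 over 13194 genes. Other filters, scalings, transforms, fits, a replicate block and leaving out each library were tried as alternatives. Promoter windows come from RefSeq, GRCm38.p6. Python 3.11.15, NumPy 2.4.6, pandas 2.3.3 and SciPy 1.17.1 were used.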

Additional observations from a re-analysis of the deposited data

Results flagged for a closer look

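For the genes and lists below, the difference between the hairpin lines (shRNA 2 minus shRNA 1) itself differed between day 0 and day 3, by limma's test of that change at an adjusted p under 0.05 or, for lists, by the called changes of their members. Values are the change from day 0 to day 3 in log2, and a positive value means that shRNA 2 gained on shRNA 1. Across all 13215 genes the change was called for 12.1%.

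Division genes had a list median of 0.94 for mitosis, 0.46 for S phase and these changes of single genes: Mki67 1.25, Cdc20 1.11, Top2a 1.01, Cenpf 1.04, Birc5 0.72, Aurkb 0.71, Ccne2 0.92, Cdt1 1.02, Cdc6 0.88, Mcm3 0.77, Rbl1 0.45 and Ung 0.64. The collagen list had a median of 0.22, and genes of secreted or matrix proteins had the changes Col1a1 0.22, Thbs2 0.37, Lum 0.75, Edil3 0.44, Mmp3 2.70, Spp1 1.55, Prl2c3 2.18, Prl2c5 1.94 and Fgf23 -1.53. Among genes of the fat cell programme and of lipids the changes were Pparg 0.26, Cebpb 0.51, Fabp4 0.63, Scd1 0.66 and Cdo1 0.52, and Cebpd changed by -0.62.

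The list of glycolysis and hypoxia genes had a median of -0.24 and Hk2 -0.26, Pfkp -0.35, Pgk1 -0.26 and Ankrd37 -1.48. Pdk4 changed by -1.61 and Tsc22d3, both glucocorticoid-induced, by -0.37. The immune genes Gbp6 and Ccl5 changed by -0.89 and -0.91. The remaining changes were Krt15 2.02, Agtr2 1.49, Ren1 1.93, Cytip -1.10, Pdzd7 -1.55, Phgdh 0.20 and Msrb3 -0.44. 

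With voom on rebuilt reads the changes of Agtr2 and Ren1, which had at most 9 rebuilt reads in any hairpin library at day 0, were 0.59 (adjusted p = 0.75) and 0.62 (0.85), that of Cytip -0.87 (0.25), that of Fgf23 -2.22 (0.23), that of Lum 0.64 (0.32), that of Pparg 0.25 (0.058) and that of Cebpb 0.52 (0.054), none of them called. On log2 of rebuilt normalised reads plus 1, those of Agtr2 (0.88, adjusted p = 0.43), Ren1 (1.44, 0.28), Cytip (-0.90, 0.12), Fgf23 (-2.14, 0.21) and Lum (0.65, 0.26) were not called. In 1 fit of all 32 libraries Cebpb (adjusted p = 0.31), Phgdh (0.16), Hk2 (0.14), Lum (0.14), Col1a1 (0.097), Pfkp (0.077), Ung (0.066) and Edil3 (0.0502) lost their calls. With no filter on low genes Lum (adjusted p = 0.19), Ung (0.15), Gbp6 (0.098), Hk2 (0.089), Pparg (0.080), Ccl5 (0.080), Edil3 (0.078), Phgdh (0.063) and Cytip (0.057) lost theirs. Without limma's trend and robust options 16 lost theirs, at adjusted p 0.054 to 0.20: Pparg, Cebpb, Cytip, Ung, Gbp6, Lum, Edil3, Cdo1, Cdc6, Ccl5, Tsc22d3, Phgdh, Hk2, Pfkp, Pgk1 and Col1a1. Leaving out 1 library ended the call of Pparg in 6 of 8 exclusions (all but shRNA 1 day 0 replicate 2 and shRNA 2 day 3 replicate 1; 0.22 to 0.28, adjusted p 0.056 to 0.14) and that of Edil3 in 6 (all but the replicates 2 of day 3; 0.36 to 0.46, 0.064 to 0.11). Lum lost its call without shRNA 1 day 0 replicate 1 (0.56), shRNA 2 day 0 replicate 1 (0.58), shRNA 1 day 3 replicate 2 (0.50, adjusted p = 0.25) or shRNA 2 day 3 replicate 2 (0.69). Ung lost it without shRNA 1 day 0 replicate 2 (0.52), shRNA 2 day 0 replicate 1 (0.50), shRNA 1 day 3 replicate 1 (0.53) or shRNA 2 day 3 replicate 1 (0.47), at adjusted p 0.15 to 0.18. Gbp6 lost it without shRNA 1 day 0 replicate 2 (-0.71), shRNA 2 day 0 replicate 1 (-0.68), shRNA 1 day 3 replicate 1 (-0.92) or shRNA 1 day 3 replicate 2 (-0.87). Hk2 and Phgdh lost it in 5 exclusions each: without either shRNA 2 library of day 0, shRNA 1 day 0 replicate 2 or shRNA 1 day 3 replicate 1 for both (-0.27 to -0.19 over its 5 exclusions for Hk2, 0.18 to 0.23 for Phgdh), and also without shRNA 2 day 3 replicate 1 for Hk2 and shRNA 1 day 0 replicate 1 for Phgdh. Without shRNA 1 day 0 replicate 2, Rbl1 (0.42, adjusted p = 0.061), Ccl5 (-0.69, 0.055) and Col1a1 (0.19, 0.082) lost it too, and Rbl1 also without shRNA 2 day 0 replicate 2 (0.41, 0.064). The other 32 gene changes given here stayed called in every exclusion of 1 library.

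None of 24 Dixon tests on groups of 4 control libraries found a library apart, and groups of 2 hairpin libraries are too small for that test.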

How the results depend on the processing

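Leaving out each of the 8 libraries in turn left 2547 to 3392 genes called over both days, 2829 to 4801 at day 0, 1942 to 2932 at day 3 and 942 to 1750 for the change between days. It left 1967 to 2543 at days 7 and 11, and leaving out each of the 16 libraries with controls 5363 to 6287 for shRNA 1 and 2981 to 3976 for shRNA 2 against control. Median list differences under the same exclusions ran from -1.06 to -0.999 for mitosis at day 0, -0.14 to -0.0092 at day 3 and 0.91 to 1.01 for its change. They ran from -0.70 to -0.64 for S phase at day 0, and from -0.70 to -0.47, -0.86 to -0.50 and -0.60 to -0.43 for interferon over both days, at day 0 and at day 3. The ranges were 0.27 to 0.36 for matrix, -0.21 to -0.14 for glycolysis at day 3, -0.28 to -0.22 for endoplasmic reticulum chaperones at day 3 and -0.26 to -0.11 for glucocorticoid genes at day 3. The Zbtb9 difference ran from 0.785 to 4.49 normalised reads.

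Other alternatives moved these values. Asking for a call within each day by separate fits, chosen after seeing the data, left 1451 genes in place of 3557. Without trend and robust empirical Bayes, 1560 genes were called at day 3 and 563 for the change. The change was called for 872 genes with no filter and 1050 in 1 fit of all 32 libraries, and that fit called 4783 genes at days 7 and 11. On rebuilt reads, with voom and as log2 of normalised reads plus 1, the medians were -1.13 and -1.13 for mitosis at day 0, 1.02 and 1.03 for its change, -0.72 and -0.72 for S phase at day 0, -0.77 and -0.87 for interferon over both days, and -1.05 and -1.02 at day 3. With voom they were 0.38 for matrix, -0.29 for chaperones and -0.20 for glucocorticoid genes, which had -0.14 with no filter. Among the named genes Fabp4 turned its direction over both days, from -0.05, not called, to 0.22 with voom. The cause was not tested for any of these.

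The replicate numbers did not pair the libraries. With the replicate block, 2662 genes were called over both days, and 10 calls of selected genes were lost, among them those of Krt15, Prl2c5, Cdt1, Mcm3 and Cenpf over both days. Of 270 calls of these genes, 219 were kept in every exclusion of 1 library, 51 were lost in at least 1 and 70 were lost in at least 1 of the other settings. The 2 libraries of each line and day limit all of these tests.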
